A study of Sus scrofa with 2 samples.

Results

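The microRNAs miR-128-3p and miR-22-3p were followed in small RNA sequenced from pig oocytes, with their levels, lengths and end forms compared between oocytes with Dicer knocked down and control oocytes. A sequence of 18 to 26 nt counted towards a miRNA if its bases included nt 2 to 18 of the mature sequence exactly and it began no more than 2 nt from the mature 5′ end. A read that starts 2 nt inside the miRNA cannot hold nt 2, so the starts that could be counted run from 2 nt upstream to 1 nt downstream. This gave 133 distinct sequences of miR-128-3p and 27 of miR-22-3p among 1166705 distinct sequences in all. These 2 miRNAs belong to a panel of 56 searched in the same way, of which 49 had a read and 32 had at least 100 reads.

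The knockdown library came from oocytes treated with siRNA against Dicer at the germinal vesicle stage and then matured in vitro for 42 h. The control library came from metaphase II oocytes, also matured in vitro for 42 h, and whether they received a control siRNA was not given in the sources used here. With a single library in each group the conditions could not be tested against each other, and each comparison is between these libraries. The knockdown library held 11982925 reads and the control library 11836160 reads, with 71.8% and 74.1% of them at 18 to 26 nt. The Dicer transcript was not measured by these libraries, so the extent of the knockdown is not known from them. How many oocytes went into each library was not given in the sources used here.

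Dicer cuts hairpin precursors into short duplexes, and one strand of each duplex is loaded into an Argonaute protein. The bases next to the 5′ end, the seed at nt 2 to 8, pair with target messenger RNAs, while the 3′ end can be trimmed by exonucleases or lengthened by nucleotidyl transferases that add adenosine or uridine. Sequences of one miRNA that differ in length or ends are called isomiRs, or forms. miR-128 is best known as a miRNA of the brain, and miR-22 is expressed widely and is best known from heart muscle and blood cells. In the RefSeq gene table for the pig assembly Sscrofa11.1, MIR128-1 lies within R3HDM1 and MIR128-2 within ARPP21. No entry for the miR-22 gene was matched there.

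The mature form of each miRNA was read from the deposited sequences, as the most abundant one with the known seed and the known bases at nt 13 to 18. These forms are shown with the seed in capitals and with T for U, together with miR-27, whose seed overlaps that of miR-128.
miR-128-3p: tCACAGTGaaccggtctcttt
miR-22-3p: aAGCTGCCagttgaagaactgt
miR-27a/b-3p: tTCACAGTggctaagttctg
The mature form of miR-128-3p had 21 nt and that of miR-22-3p had 22 nt. The counted reads were set against all reads of 18 to 26 nt with the same seed at nt 2 to 8. Those of miR-128-3p came to 54.4% of such reads after knockdown and 53.6% in the control. For miR-22-3p they came to 67.3% and 51.7%. The other reads with these 7 bases at nt 2 to 8 were not analysed here. The longest run shared by miR-128 and miR-27 was 8 nt, which starts at nt 1 of miR-128 and at nt 2 of miR-27.

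The abundant forms of miR-128-3p differed in the bases after nt 18, which are in capitals. The 6 most abundant are shown, with 2 more that had the highest ratios of shares among forms with at least 50 reads.
mature form, 21 nt: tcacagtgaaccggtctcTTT
20 nt: tcacagtgaaccggtctcTT
22 nt, cytidine added: tcacagtgaaccggtctcTTTC
19 nt: tcacagtgaaccggtctcT
23 nt, cytidine and adenosine added: tcacagtgaaccggtctcTTTCA
19 nt, adenosine after nt 18: tcacagtgaaccggtctcA
22 nt, uridine added: tcacagtgaaccggtctcTTTT
23 nt, cytidine and uridine added: tcacagtgaaccggtctcTTTCT
The 6 most abundant forms of miR-22-3p, marked in the same way, were the mature form, 3 plain truncations of it and 2 forms with an adenosine at the end.
mature form, 22 nt: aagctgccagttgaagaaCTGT
21 nt: aagctgccagttgaagaaCTG
19 nt: aagctgccagttgaagaaC
20 nt: aagctgccagttgaagaaCT
23 nt, adenosine added: aagctgccagttgaagaaCTGTA
22 nt, adenosine after nt 21: aagctgccagttgaagaaCTGA
No hairpin sequence was used here, so whether a base past the mature end is encoded in the precursor or added afterwards was not determined.

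Both members were chosen by their levels in these libraries, one as steady and one as higher after knockdown, so the levels are a description. They are given as reads scaled to the library total (RPM). miR-128-3p had 5681 reads, or 474 RPM, in the knockdown library and 5384 reads, or 455 RPM, in the control library. The ratio of knockdown to control was 1.04, with an exact interval of 1.004 to 1.08. miR-22-3p had 4229 reads, or 353 RPM, in the knockdown library and 2815 reads, or 238 RPM, in the control library. Its ratio was 1.48 (1.41 to 1.56). All intervals are at 95% and take in nothing but counting error, and amplified reads that carry no molecular identifier may be copies of one molecule. Within a library, miR-22-3p stood at 0.744 reads per read of miR-128-3p after knockdown (0.715 to 0.775) and at 0.523 in the control (0.499 to 0.547).

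Neither member differed by 2-fold. Over the 10652 distinct sequences of 18 to 26 nt with at least 100 reads, 11.1% differed by 2-fold or more, 5.03% being higher and 6.1% lower after knockdown, and 11.4% had a ratio at least as high as that of miR-22-3p. Of the 32 panel miRNAs with at least 100 reads, 25% differed by 2-fold, 21.9% being higher and 3.12% lower, and 31.2% had a ratio at least as high as that of miR-22-3p. In the panel the median log2 ratio was 0.20, against -0.11 for the sequences. The ratio of miR-128-3p ranked 17th and that of miR-22-3p 10th from the highest in the panel. The panel miRNAs nearest to miR-128-3p in log2 ratio, over these 2 libraries, were miR-148a-3p with a ratio of 1.04, miR-10b-5p with 1.03 and miR-191-5p with 0.966. Those nearest to miR-22-3p were miR-101-3p with 1.51, miR-138-5p with 1.42 and miR-486-5p with 1.34.

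Marker miRNAs of other cell types also differed between the libraries, and their part in the level of miR-22-3p was not tested. In bulk samples, more cells of a type and more RNA per cell cannot be told apart. The stromal and vascular list, of which 4 of 5 members had a read and miR-214-3p had none, summed to 126 RPM after knockdown and 28.9 RPM in the control, mostly miR-143-3p with 118 and 24.2 RPM. The blood list, with 3 of 5 members detected and miR-144-3p and miR-223-3p at 0, summed to 51.0 RPM after knockdown and 35.6 RPM in the control. Most of that was miR-486-5p with 559 and 413 reads, and miR-142-5p had 47 reads after knockdown and 1 in the control. The granulosa and gonadal list had all 5 members, most of its reads from miR-21-5p, and summed to 608 RPM after knockdown and 472 RPM in the control, a ratio of 1.29. Of its other members, miR-202-5p had 32 reads after knockdown and 6 in the control, a ratio of 5.27 (2.17 to 15.4), and miR-383-5p had 27 and 47 reads, a ratio of 0.567 (0.340 to 0.930). The neural list had 5 of 6 members, without miR-219-5p, at 20.4 and 16.7 RPM. The heart and skeletal muscle list had 2 of 5 members at 1.42 RPM after knockdown and 1.69 RPM in the control, with miR-1-3p, miR-206 and miR-208b-3p at 0. miR-10b-5p, miR-182-5p and miR-148a-3p, a list taken from earlier results of these libraries, together stood at 56424 RPM after knockdown and 57321 RPM in the control. These small RNAs hold no defining marker of the oocyte, so the cell label was not checked further.

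The 5′ ends of both miRNAs were nearly fixed, so that the seed was constant. In the knockdown library 5678 of 5681 reads of miR-128-3p began at the mature start, and in the control library 5382 of 5384. For miR-22-3p the counts were 4222 of 4229 reads after knockdown and 2811 of 2815 in the control. As shares these are 99.9% for miR-128-3p after knockdown (exact binomial interval 99.8 to 99.99%) and 99.8% for miR-22-3p after knockdown (99.7 to 99.9%). With both libraries together the panel median was 99.6%, and miR-128-3p ranked 7th and miR-22-3p 13th highest of 32. A form of miR-128-3p that starts 1 nt upstream would carry the miR-27 seed. It had 0 of 5681 knockdown reads, where the floor of 3 reads given to a count of 0 is a share of 0.0528%. It had 0 of 5384 control reads, where that floor is 0.0557%. miR-22-3p had 6 knockdown reads and 4 control reads that began 1 nt downstream, and 1 knockdown read that began 1 nt upstream.

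The 3′ ends set the members apart. miR-128-3p was spread over many forms, and miR-22-3p was concentrated in one. The mature form took 29.2% of miR-128-3p reads in the knockdown library (28.0 to 30.4%) and 24.8% in the control library (23.7 to 26.01%). For miR-22-3p it took 67.6% after knockdown (66.2 to 69.0%) and 64.0% in the control (62.2 to 65.8%). With both libraries together, 13 forms were needed to reach 90% of the reads of miR-128-3p, the highest number in the panel, and 3 forms for miR-22-3p, against a panel median of 4. miR-101-3p and miR-199a/b-3p needed 12 forms and miR-183-5p 11, on 2419, 147 and 1870 reads. At an equal depth of 2815 reads, 79.5 distinct forms of miR-128-3p were expected in the knockdown library and 81.4 in the control library. For miR-22-3p the expected numbers were 19.1 and 17 forms.

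Read lengths followed the same pattern. Reads of miR-128-3p covered 18 to 26 nt in both libraries, with a mean of 20.89 nt after knockdown and 20.97 nt in the control and an SD over reads of 1.25 and 1.29 nt. In the knockdown library 15.1% of its reads had 19 nt, 20.98% had 20 nt, 33.7% had 21 nt, 18.7% had 22 nt and 9.59% had 23 nt. In the control library the shares were 15.2% at 19 nt, 19.7% at 20 nt, 29.1% at 21 nt, 23.9% at 22 nt and 9.64% at 23 nt. The 21-nt share was thus higher and the 22-nt share lower after knockdown, with intervals of 32.5 to 34.9% and 17.7 to 19.8% that lay apart from the control intervals of 27.9 to 30.4% and 22.8 to 25.1%.

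miR-22-3p reads were longer and tighter, with a mean of 21.57 nt after knockdown and 21.51 nt in the control and an SD of 0.776 and 0.804 nt. Reads of 22 nt made up 68.3% in the knockdown library (66.8 to 69.7%) and 64.4% in the control library (62.6 to 66.2%). Those of 21 nt made up 22.6% and 25.7%. Above the mature length the distribution stopped almost at once, with 25 knockdown reads and 10 control reads of 23 nt and 0 of 24 to 26 nt in either library.

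**Figure D1:**
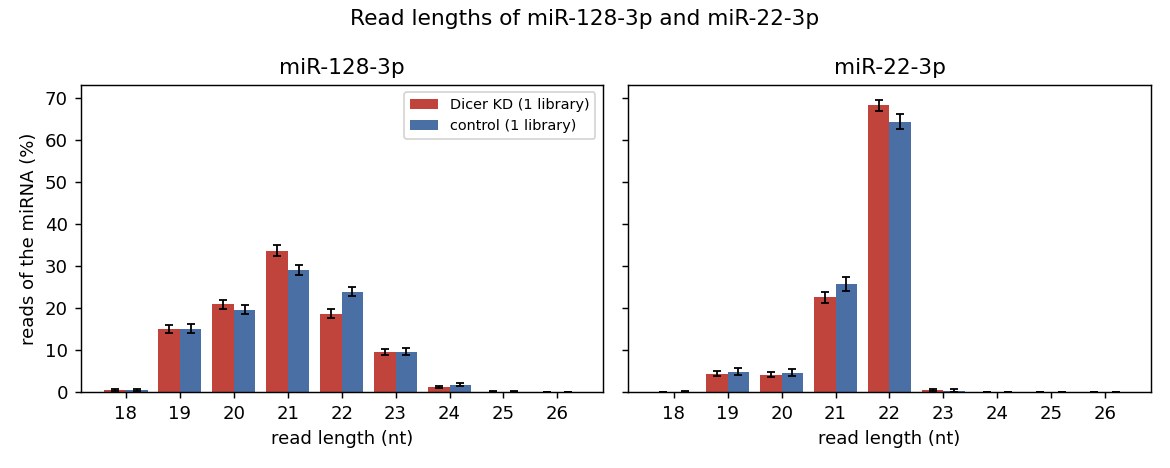
Share of reads (%, vertical axis) by read length (nt, horizontal axis) for miR-128-3p and miR-22-3p in the Dicer knockdown and control libraries, 1 library each; bars are shares and lines are exact binomial 95% intervals. miR-128-3p spreads over 19 to 23 nt, and miR-22-3p has 68.3% and 64.4% of its reads at 22 nt.

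Each 3′ end was placed in 1 of 4 classes: the mature end, a shorter end without other change, a longer end that adds bases to the whole mature form, and a departing end, where a base within the mature length differs. The shorter class was alike in size for both miRNAs, with 32.7% of miR-128-3p reads and 30.9% of miR-22-3p reads after knockdown, and 31.8% and 35.0% in the control. The departing class held 13.5% of miR-128-3p reads in the knockdown library (12.7 to 14.5%) and 13.1% in the control library (12.2 to 14.0%). For miR-22-3p it held 0.757% after knockdown (0.518 to 1.07%) and 0.462% in the control (0.246 to 0.788%). The longer class held 24.5% of miR-128-3p reads after knockdown (23.4 to 25.7%) and 30.3% in the control (29.0 to 31.5%), against 0.568% and 0.355% of miR-22-3p reads. Past the mature end the first base was cytidine in 70.4% of the longer miR-128-3p reads after knockdown and 76.7% in the control, and adenosine in 21.1% and 17.7%.

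**Figure D2:**
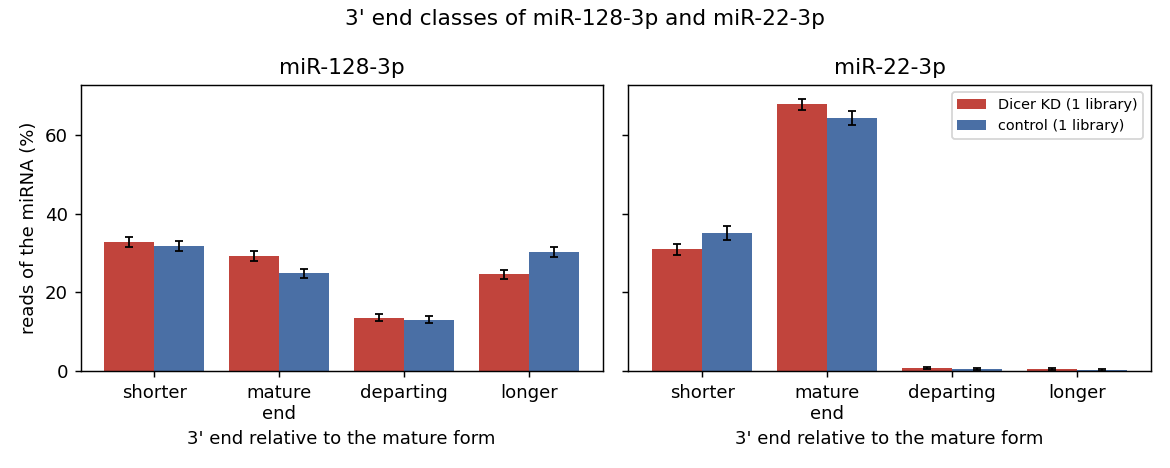
Share of reads (%, vertical axis) in each class of 3′ end (horizontal axis) for miR-128-3p and miR-22-3p, in the Dicer knockdown and control libraries, with exact binomial 95% intervals over reads. The departing and longer classes hold 13.5% and 24.5% of miR-128-3p knockdown reads and are under 1% for miR-22-3p in both libraries.

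Departing ends of miR-128-3p were mostly adenosine. Neither mature form has an adenosine after nt 18, so an adenosine added there shows on both. The bases of miR-128-3p at nt 19 to 21 are all uridine, so a uridine added to a shortened end cannot be told apart from the mature sequence. The first departing base of miR-128-3p was adenosine in 83.7% of 769 knockdown reads (80.9 to 86.3%) and 83.3% of 705 control reads (80.3 to 85.9%), and guanosine in 14.3% and 14.8%. Reads that left the mature sequence early and then held adenosines alone made up 9.22% of miR-128-3p after knockdown (8.48 to 10.01%) and 8.73% in the control (7.99 to 9.52%). For miR-22-3p they made up 0.307% (0.164 to 0.525%) and 0.142% (0.0387 to 0.363%). Added runs of 1 adenosine, anywhere at or before the mature end, were 6.90% of miR-128-3p reads in the knockdown library and 6.63% in the control library. Runs of 2 were 4.86% and 3.88%, and runs of 3 were 1.496% and 1.56%. On miR-22-3p only runs of 1 were seen, in 33 knockdown reads and 14 control reads.

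Mismatches inside the miRNA were counted beside the departing ends. Over nt 9 to 17, reads with 1 mismatch were 0.0957% of miR-128-3p reads per position after knockdown and 0.159% in the control, and 0.0496% and 0.0197% of miR-22-3p reads. These are means over positions, single substitutions were uneven, and the error rate at the 3′ end was not measured, so the part of sequencing error in the departing share was not tested. At nt 18, 1.27% of miR-128-3p reads after knockdown and 1.14% in the control departed from the mature form. The members were counted only if nt 18 matched, so these 74 knockdown reads and 63 control reads are not among them and are not in the departing share.

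The share that carried adenosines depended on where the match to the mature form ended. Of the miR-128-3p reads that matched up to nt 18 and no farther, 166 of 220 after knockdown, or 75.5%, and 174 of 222 in the control, or 78.4%, went on with adenosines alone. Of those matched up to nt 19 it was 10.1% and 8.11%, up to nt 20 17.6% and 16.7%, and up to nt 21 7.89% and 6.88%. Plain reads of 18 nt, without an added base, were few, with 32 after knockdown and 29 in the control. The deposited tables start at 18 nt, so shorter reads were not analysed here. On miR-22-3p the share was at most 1.14% after knockdown and 0.553% in the control at any end from nt 19 to nt 22.

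**Figure D3:**
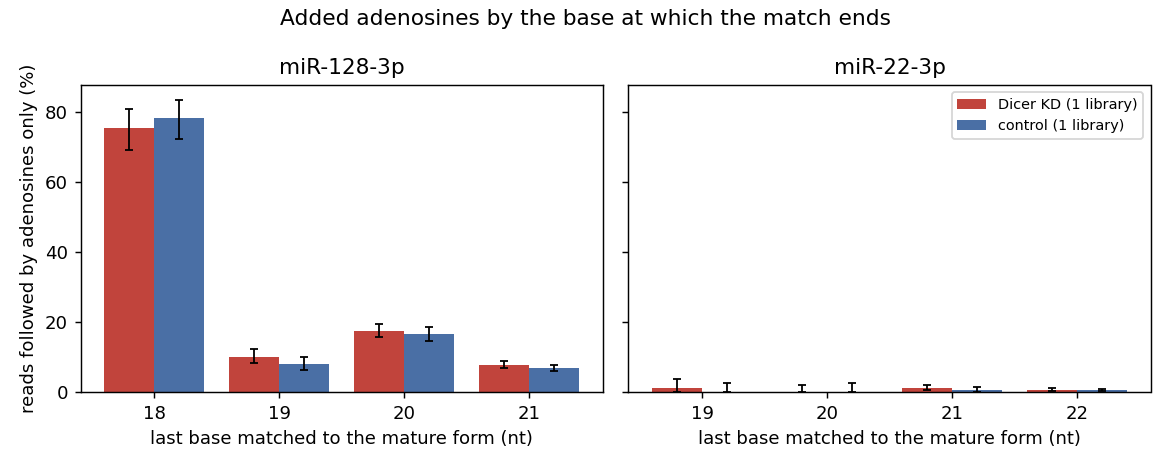
Share of reads followed by adenosines alone (%, vertical axis) among reads of miR-128-3p and miR-22-3p whose match to the mature form ends at the base given (nt, horizontal axis), for ends with at least 100 reads, with exact binomial 95% intervals. For miR-128-3p it is 75.5% and 78.4% at nt 18 and 6.88 to 17.6% at nt 19 to 21.

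Among the forms of miR-128-3p, the mature form and the 22-nt form with an added cytidine differed in opposite directions between the libraries. The 22-nt form with a cytidine added had 660 reads in the knockdown library, 11.6% of the miRNA, and 955 reads in the control library, 17.7%, a ratio of 0.683 (0.617 to 0.755). The mature form had 1660 reads, or 138.5 RPM, after knockdown and 1337 reads, or 113 RPM, in the control, a ratio of 1.23 (1.14 to 1.32). The 20-nt form had 1106 and 995 reads, a ratio of 1.098 (1.007 to 1.197), and the 19-nt form 718 and 686 reads, a ratio of 1.03 (0.930 to 1.15).

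Longer forms that share this cytidine and go on past it did not show the same difference. They had 321 reads after knockdown and 294 in the control, a ratio of 1.08 (0.918 to 1.27). Among them the 23-nt form that adds cytidine and adenosine had 151 and 160 reads, with a ratio of 0.932 (0.741 to 1.17), and the form that adds cytidine and uridine 44 and 27 reads, with a ratio of 1.61 (0.975 to 2.70). The 22-nt form with a uridine added had 79 reads after knockdown and 53 in the control, a ratio of 1.47 (1.03 to 2.13). The 19-nt form with adenosine after nt 18 held 2.25% of the miRNA after knockdown and 2.36% in the control, with a ratio of 0.996 (0.773 to 1.28). Of the 19 forms of miR-128-3p with at least 50 reads, none differed by 2-fold, against 11.1% of all sequences with at least 100 reads. A ratio above 1 was seen for 16, and the interval lay above 1 for 4 and below 1 for the 22-nt cytidine form. The shares of all sequences with such ratios or intervals were not computed, so these counts are a description.

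Reads that end in cytidine were also fewer, by less, over all reads of 18 to 26 nt, as were those that end in adenosine. Reads of miR-128-3p ending in cytidine made up 12.8% after knockdown and 20.02% in the control, a ratio of shares of 0.642 (0.583 to 0.706). Forms in which adenosines are followed by a final cytidine had 21 knockdown reads and 68 control reads, while those with adenosines alone had 765 and 674. Among 18 other panel miRNAs with at least 100 reads ending in cytidine, miR-22-3p among them, the ratio of shares had a median of 0.934. It was below 1 for 11, with the interval below 1 for 5, and the others did not go that way. miR-27a/b-3p had 0.720 (0.607 to 0.857) and miR-148a-3p 0.789 (0.739 to 0.841), and miR-103-3p and miR-107-3p, counted together, whose most abundant form has 18 nt and ends in cytidine, had 10.9. Over all reads of 18 to 26 nt, those ending in cytidine were 16.7% after knockdown and 17.4% in the control. Their ratio in RPM was 0.931, which is not a ratio of these shares. Those ending in adenosine were 17.3% and 18.8%, with a ratio in RPM of 0.888. As RPM is scaled to all reads of the library, these ratios do not have the same base as the ratios of shares given for the miRNAs. The part of a library-wide difference in last bases in the result for miR-128-3p was not tested.

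miR-22-3p was chosen as higher after knockdown, so the ratios of its abundant forms restate that choice and are a description. The mature form had 2860 reads after knockdown and 1802 in the control, a ratio of 1.57 (1.48 to 1.66). The 21-nt form had 948 and 717 reads, a ratio of 1.31 (1.18 to 1.44), the 19-nt form 183 and 137 reads, a ratio of 1.32 (1.05 to 1.66), and the 20-nt form 173 and 129 reads, a ratio of 1.32 (1.05 to 1.68). Per read of miR-22-3p, the mature form had a ratio of shares of 1.06 (0.996 to 1.12) and the 21-nt form 0.880 (0.798 to 0.971). The interval for the mature form is too wide, because it leaves out that this form is most of the total. The exact binomial intervals of its shares, 66.2 to 69.0% after knockdown and 62.2 to 65.8% in the control, lay apart. The 19-nt form had 0.889 (0.709 to 1.12) and the 20-nt form 0.893 (0.707 to 1.13). The shorter class as a whole stood at 30.9% of the miRNA's reads after knockdown (29.5 to 32.3%), against 35.0% in the control (33.3 to 36.8%). The forms with an adenosine at the end were too few to compare, with 20 and 10 reads at 23 nt and 11 and 4 reads for adenosine after nt 21.

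**Figure D4:**
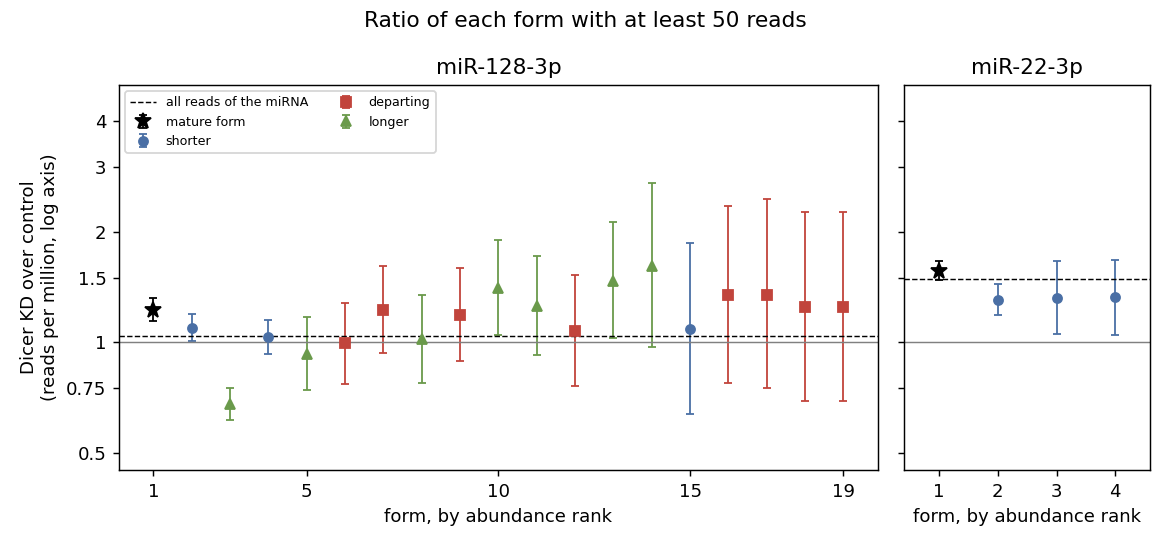
Ratio of the Dicer knockdown to the control library in RPM (log axis) for each form of miR-128-3p and miR-22-3p with at least 50 reads, ordered by abundance, with exact 95% intervals; the dashed line is the ratio of all reads of the miRNA and the grey line marks 1. The third most abundant form of miR-128-3p, with an added cytidine, lies at 0.683, and the 4 forms of miR-22-3p lie between 1.31 and 1.57.

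The opposite arms of both hairpins were nearly absent. Reads of miR-128-5p numbered 14 after knockdown and 7 in the control, or 0.246% (0.134 to 0.412%) and 0.130% (0.0522 to 0.267%) of the reads of both arms. All 21 carried the bases known for the arm from MIR128-1, and no read carried those known for the arm from MIR128-2. The floor of 3 reads for a count of 0 is 0.250 RPM after knockdown and 0.253 RPM in the control. miR-22-5p had 0 reads after knockdown and 2 in the control. No read held the reverse complement of either member.

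Against the panel, miR-128-3p was at the end of the range where reads are spread most evenly over forms, and miR-22-3p was within it. The most abundant form held 27.1% of miR-128-3p reads over both libraries, the lowest of 32 miRNAs, just below miR-183-5p at 27.6% and miR-125b-5p at 28.8%. For miR-22-3p it held 66.2%, the 10th highest, and the panel median was 51.1%. The share that departed by adenosines alone was 8.98% for miR-128-3p. This was below miR-101-3p at 17.6% of 2419 reads and miR-96-5p at 9.42% of 138 reads and above all others of the 32. For miR-22-3p it was 0.241%, the 25th highest, and the panel median was 0.893%. This share leaves out adenosines added past the end of the most abundant form. With those included, miR-128-3p ranked 4th highest and miR-22-3p 29th. Above miR-128-3p were then miR-125b-5p at 26.5% of 1127 reads, miR-101-3p at 17.6% and miR-486-5p at 17.3% of 972 reads. These panel values are measured against the most abundant form of each miRNA, which may itself carry an added base, and no test of the difference was made.

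**Figure D5:**
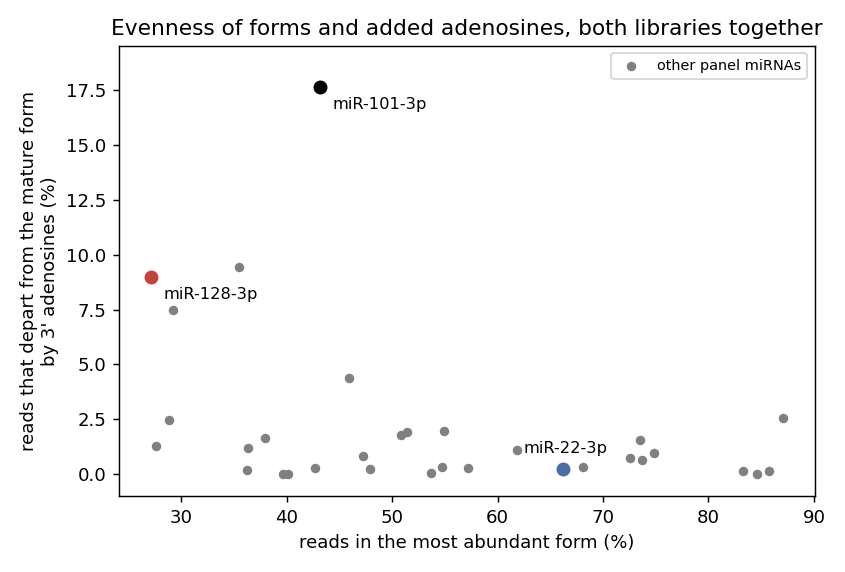
Share of reads that depart from the mature form by 3′ adenosines alone (%, vertical axis) against the share of reads in the most abundant form (%, horizontal axis), 1 point per miRNA of the panel with at least 100 reads (32 miRNAs, both libraries summed). miR-128-3p lies at 27.1% and 8.98%, miR-22-3p at 66.2% and 0.241%, and miR-101-3p highest at 17.6%.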

How the data were processed

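Small RNA of total RNA from pig oocytes was ligated to adapters, amplified and sequenced, per the labels' protocols. For each library the authors deposited a list of distinct sequences of 18 to 44 nt with the length and the raw read count of each. The submitters' processing notes name Bowtie2, without a version. No build or adapter trimming is given in the sources used here.

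The members and the lists were chosen with earlier results of these data known. No table of miRNA or hairpin sequences was used, so each miRNA of the panel was found by its seed (nt 2 to 8) and nt 13 to 18, and its mature form was the most abundant sequence with both. The planned share of untemplated tails was replaced by the share of departing ends, and all RefSeq miRNAs by the panel. Both replacements were chosen after seeing the data. miR-133a and miR-133b, miR-199a and miR-199b, and other pairs alike up to nt 18 were counted once.

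RPM scales the reads of a miRNA to all reads of its library. A count of 0 was given a floor of 3 reads. Counts have exact Poisson, shares exact (Clopper-Pearson) binomial and ratios exact conditional intervals. For a ratio of shares this interval takes the totals as given, so it is too wide where a form holds much of the total. The expected number of forms at 1 depth is the exact expectation of drawing without replacement. Named forms were the 6 most abundant of each miRNA and the 2 highest and 2 lowest in share ratio among those with at least 50 reads. The counting and the intervals were tested on simulated data. No p-value was computed. Python 3.11.15, numpy 2.4.6, pandas 2.3.3, scipy 1.17.1 and matplotlib 3.10.9 were used.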

Additional observations from a re-analysis of the deposited data

Results flagged for a closer look

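Signals outside the counted reads were higher in the knockdown library in 2 places, both for miR-22-3p. Reads that held its nt 2 to 18 outside the length or start window numbered 7 after knockdown and 0 in the control, above the floor of 3 reads given to a count of 0. Per read of miR-22-3p the lower limit of that ratio was 0.959, so the interval takes in 1. Reads of 18 to 26 nt with 1 mismatch in nt 9 to 18 numbered 24 after knockdown and 5 in the control, a ratio of 4.74 (1.77 to 15.9). For these mismatched reads the ratio per read of miR-22-3p was 3.20 (1.20 to 10.7). For miR-128-3p the corresponding counts were 3 and 7 reads, and 124 and 142 reads.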

How the results depend on the processing

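The ratios of miR-128-3p and miR-22-3p kept their direction under all 8 alternatives each, from 1.04 to 1.08 and from 1.48 to 1.53. For miR-128-3p the interval took in 1 when reads of the panel were the base (0.998 to 1.08), with nt 2 to 20 required (0.9986 to 1.09) and with 1 mismatch allowed (0.9999 to 1.08). With nt 2 to 20 required, the mature form held 36.2% after knockdown and 30.8% in the control for miR-128-3p, and 70.8% and 67.4% for miR-22-3p. The departing share of miR-128-3p was then 9.19% and 8.83%, and mean lengths were 21.26 and 21.36 nt for miR-128-3p and 21.68 and 21.64 nt for miR-22-3p. This setting drops plain reads that end at nt 18 or 19, such as 718 knockdown reads of miR-128-3p that end at nt 19, and reads that depart at nt 19 or 20. With lengths of 20 to 24 nt, the mature form held 34.7% after knockdown and 29.5% in the control of miR-128-3p, and 70.7% and 67.3% of miR-22-3p. Mean lengths were then 21.24 and 21.34 nt, and 21.68 and 21.64 nt, since reads of 18 and 19 nt are left out. With only sequences of at least 5 reads, the mature start of miR-128-3p reached 100% in both libraries, and the departing share of miR-22-3p was 0.381% after knockdown and 0.178% in the control. Of 67 alternatives, 45 were classed as unchanged. For ratios, shares and mean lengths this means within the interval of the main setting. The count of panel miRNAs past 2-fold has no interval and was classed by a set factor, with 8 becoming 7 to 9. Depth limits the adenosine forms of miR-22-3p and both 5p arms. No paired analysis was possible because each group has 1 library.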

Other observations

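Reads of miR-128-3p with 1 mismatch were not spread evenly over the bases, which are counted from 1 at the 5′ end with the base of the mature form first. C11T had 25 reads after knockdown and 32 in the control, in 8 distinct sequences. T15G had 11 reads after knockdown and 38 in the control, in 11 sequences, a ratio of 0.286 (0.132 to 0.571). C18A had 41 and 53 reads, a ratio of 0.764 (0.496 to 1.17). In the other direction, C18T had 25 and 9 reads, a ratio of 2.74 (1.24 to 6.68). C18G had 8 and 1 reads, a ratio of 7.90 (1.06 to 351). Each of the other substitutions at nt 9 to 17 had at most 4 reads in a library. These positions were chosen after their values had been seen.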
